A study of Mus musculus with 22 samples.

Results

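The interleukin-1 system was followed through 8 genes: the ligand genes IL1A and IL1B, the receptor antagonist gene IL1RN, the receptor genes IL1R1, IL1R2 and IL1RAP, the inflammasome sensor gene NLRP3 and the protease gene CASP1. They were taken by symbol, as a list drawn up when earlier results of these data were known, and all 8 are among the 24353 symbols of both deposited expression tables. The tables hold bulk RNA-seq of 22 libraries from EMT6 tumours, grown from 200000 cells of this mouse mammary carcinoma line injected into each inguinal fat pad of wild-type BALB/c mice that were 5 to 6 weeks old. Tumours were dissociated and split with anti-CD45 beads into a CD45-negative fraction, meant to enrich tumour cells, and a CD45-positive fraction, meant to enrich leukocytes. Treatment began once tumours could be felt, at about day 5 to 7, and there were 5 groups. The vehicle group had 2 CD45-negative and 2 CD45-positive libraries. The JQ1 group (a BET bromodomain inhibitor, 50 mg/kg daily by mouth) had 2 and 2, and the group given JQ1 with anti-PD-L1 (antibody clone 10F.9G2, 10 mg/kg, 2 injections a week) had 2 and 2. The group given JQ1 with paclitaxel (10 mg/kg, 2 injections a week) had 3 and 2, and the group given JQ1, paclitaxel and anti-PD-L1, called the 3-drug group, had 3 and 2. Every treated group received JQ1, so the antibody and paclitaxel were seen only on top of it. In the groups given JQ1 with anti-PD-L1, JQ1 alone or vehicle both tumours carried 1 mouse code, a right and a left tumour, so p-values there rest on the spread of tumours with possibly 1 animal behind them. Replicate numbers follow the order of deposition and pair nothing.

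IL-1 alpha and IL-1 beta are inflammatory cytokines made mainly by myeloid cells, although IL-1 alpha also occurs in epithelial and tumour cells. Both signal through the receptor encoded by IL1R1 together with the co-receptor encoded by IL1RAP, which leads to NF-kB activation; the IL1RN product occupies that receptor without signalling, and the IL1R2 product is a decoy that binds ligand. IL-1 beta is made as an inactive precursor that caspase-1, activated on an inflammasome such as that of NLRP3, cuts to its mature form; this step acts on protein and is not seen in RNA.

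Values are FPKM, fragments per kilobase of gene, scaled to the mapped fragments of the library, so levels can be compared between genes per length. Differences are of log2(FPKM + 1) ± standard error (SE), which understates changes at low levels. The words rose and fell are used where limma's moderated test, adjusted with Benjamini-Hochberg over all genes tested in a fraction, gave a p under 0.05. All 8 genes passed the filter of at least 1 FPKM in at least 2 libraries in both fractions, among 10780 CD45-negative and 10340 CD45-positive genes tested. PTPRC, the gene of CD45, lay at 1.25 to 8.65 FPKM in CD45-negative and at 38.6 to 73.7 FPKM in CD45-positive libraries. For 10 tumours sequenced in both fractions, the sum of 6 pan-leukocyte genes was 5.72% to 15.7% as high in CD45-negative as in CD45-positive cells (median 8.78%). CD45-negative libraries therefore held some leukocyte RNA. In such bulk samples fewer cells of a type and less RNA per cell cannot be told apart. Absolute depth is unknown, and only relative depth could be read, from the steps between low values.

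The starts of the ligand genes and of the antagonist gene are shown because these 3 genes had their highest and lowest levels largely in the same libraries of a fraction. RefSeq promoter windows (build GRCm38.p6) matched all 8 genes, with 12 starts in all. The expression values were made on mm9, and no value is tied to these positions. Each line gives the 150 bases before a start, 5′ to 3′ on the gene's strand, with TATAAA and TGANTCA matches (the latter the AP-1 motif) in capitals. IL1A is on the minus strand at chr2:129309973-129310122, IL1B on the minus strand at chr2:129371140-129371289 and the first of 3 IL1RN starts on the plus strand at chr2:24336710-24336859.
IL1A: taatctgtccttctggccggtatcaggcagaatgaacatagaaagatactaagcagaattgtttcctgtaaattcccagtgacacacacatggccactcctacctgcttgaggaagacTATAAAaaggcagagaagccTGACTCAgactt
IL1B: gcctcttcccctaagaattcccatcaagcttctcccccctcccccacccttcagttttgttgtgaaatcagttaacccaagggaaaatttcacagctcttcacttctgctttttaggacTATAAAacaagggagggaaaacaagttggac
IL1RN: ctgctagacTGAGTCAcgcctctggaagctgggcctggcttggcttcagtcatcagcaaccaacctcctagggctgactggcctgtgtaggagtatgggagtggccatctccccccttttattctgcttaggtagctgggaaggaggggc

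Both ligand starts had TATAAA, beginning 32 (IL1A) and 31 (IL1B) bases before the start, which 12.4% of 32851 windows of 250 bases held on either strand. TGANTCA, present in 6.75% of windows, was found 12 bases before the IL1A start and 141 bases before this IL1RN start, and in no other window of the 8 genes. A simplified NF-kB motif, GGG and TTCC with any 3 bases between (4.65% of windows) was found at another IL1RN start and at an IL1R1 start, and TTGCNNAA, a C/EBP motif (9.56% of windows), at an IL1R1 start. The printed matches do not overlap each other, and each describes letters only.

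In the CD45-negative fraction most interleukin-1 genes were higher in tumours that had received anti-PD-L1 on top of JQ1. When anti-PD-L1 was added to JQ1, with or without paclitaxel (5 libraries with the antibody against 5 without), 6 of the 8 genes rose and none fell, beside 25.0% of all tested genes called either way and 14.0% called higher. The antagonist gene and both ligand genes showed the largest of these differences, followed by the decoy receptor gene, NLRP3 and the signalling receptor gene. The median difference of the 8 genes was 0.87, beside 0.026 for all genes. Only IL1RN had no overlap between the libraries with and without antibody, which was the case upwards for 6.35% of genes. The 2691 genes called in all ranged from 1567, without replicate 2 of JQ1 with anti-PD-L1, to 2879 with 1 library left out.

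Of the 8 genes, none was called with JQ1 against vehicle in that fraction (14.8% of all genes called), although limma's unadjusted p was under 0.05 for 5 of them. No gene of the 8 was called with JQ1 and anti-PD-L1 against vehicle (0.25% of all genes), where the unadjusted p was under 0.05 for 4. IL1R2 fell with JQ1 and paclitaxel against vehicle (17.6% of all genes called), and IL1RN rose in the 3-drug group against vehicle (1.63%). Neither all 4 treated groups averaged against vehicle (7.37% of all genes) nor paclitaxel added to JQ1 with or without the antibody (3.56%) called any of the 8, with an unadjusted limma p under 0.05 for 2 and 3 of them. The interaction of both added drugs called none (0.00928% of all genes), with an unadjusted p under 0.05 for IL1A, IL1B and CASP1. These comparisons share the vehicle or the JQ1 libraries. The shares of all genes moved more than 1.5 times with single libraries. That of JQ1 against vehicle also moved with relative depth as a covariate, where 310 genes were called. JQ1 against vehicle called 1592 genes, but 423 without JQ1 replicate 1 and 455 and 684 without vehicle replicate 2 or 1. JQ1 with paclitaxel called 1893, but 530 and 821 without vehicle replicate 2 or 1. The 3-drug group called 176, but 5 without vehicle replicate 1 and 10 without its own replicate 2, beside the call of IL1RN.

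**Figure D1:**
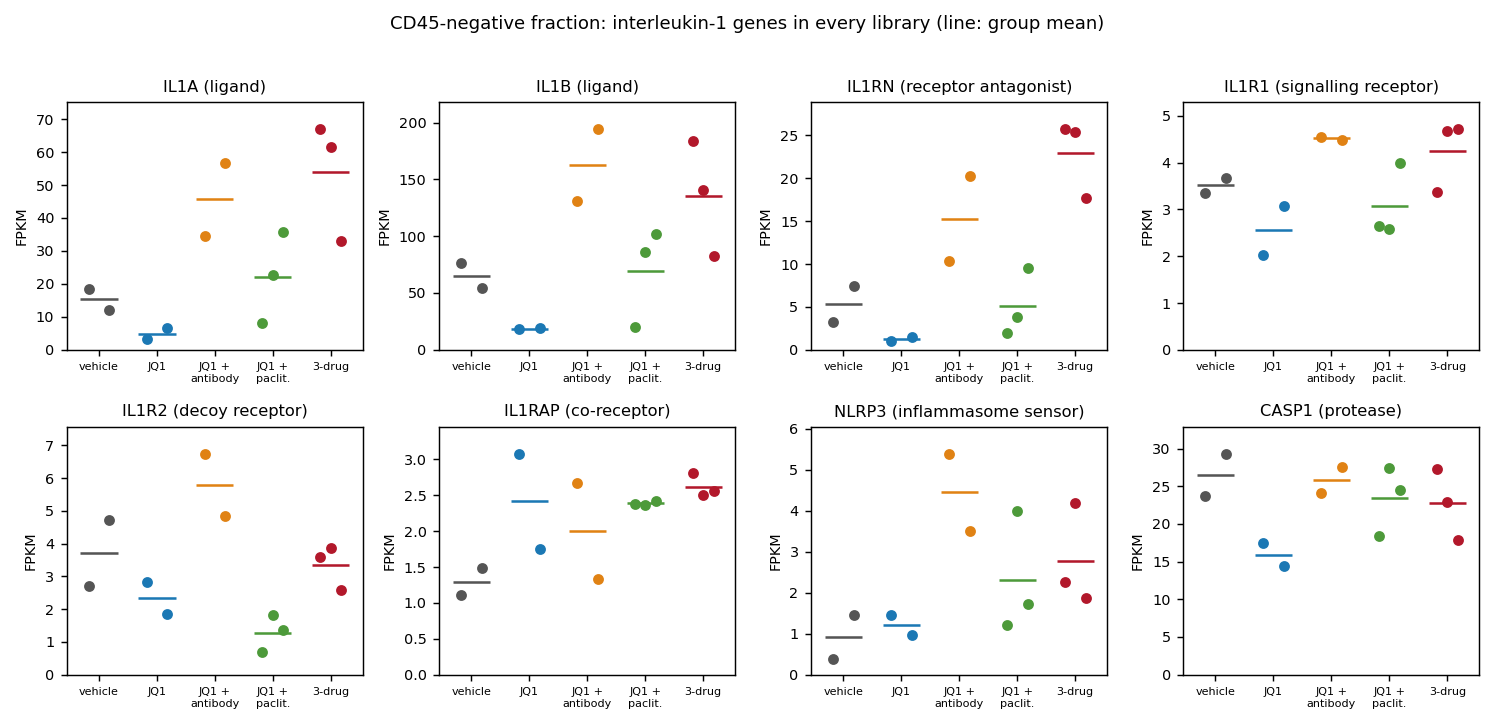
FPKM of the 8 interleukin-1 genes in each of the 12 CD45-negative libraries, 1 panel per gene, with the 5 treatment groups on the horizontal axis; points are libraries and lines are group means, "antibody" is anti-PD-L1 and "paclit." is paclitaxel. IL1A, IL1B and IL1RN are lowest in both JQ1 libraries and high in both groups with anti-PD-L1, while CASP1 and IL1RAP stay within a narrow range.

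IL1A, the gene of the ligand that is active without caspase-1, lay at 18.6 and 12.1 FPKM in vehicle libraries, 3.35 and 6.47 FPKM with JQ1, 34.5 and 56.8 FPKM with JQ1 and anti-PD-L1, 8.12, 22.8 and 35.6 FPKM with JQ1 and paclitaxel, and 67.0, 61.5 and 32.9 FPKM in the 3-drug group. Both JQ1 libraries were below every other CD45-negative library, and with antibody only the lowest values, 32.9 and 34.5 FPKM, reached down to the highest value without it. With anti-PD-L1 added, IL1A rose by 2.19 ± 0.34 (limma adjusted p = 0.001). With JQ1 alone against vehicle the difference was -1.49 ± 0.53 and was not called (adjusted p = 0.0776).

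IL1B, the caspase-1 substrate, was the most abundant of the 8 genes by its median in both fractions. Its CD45-negative values were 76.1 and 54.2 FPKM with vehicle, 17.9 and 19.2 FPKM with JQ1, 131 and 194 FPKM with JQ1 and anti-PD-L1, 20.4, 86.4 and 101.6 FPKM with JQ1 and paclitaxel, and 184, 140 and 82.6 FPKM with 3 drugs. The JQ1 libraries agreed closely and lay below both vehicle libraries, whereas the JQ1 with paclitaxel libraries ranged from the level of JQ1 alone to above that of vehicle. With anti-PD-L1 added, IL1B rose by 2.11 ± 0.37 (adjusted p = 0.00191). JQ1 against vehicle gave -1.74 ± 0.58 (adjusted p = 0.0601, not called).

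IL1RN encodes the antagonist that competes with both ligands for the receptor. It lay at 3.28 and 7.48 FPKM with vehicle, 1.05 and 1.5 FPKM with JQ1, 10.3 and 20.3 FPKM with JQ1 and anti-PD-L1, 1.96, 3.83 and 9.53 FPKM with JQ1 and paclitaxel, and 25.8, 25.4 and 17.7 FPKM with 3 drugs. Every library with antibody was above every library without it, vehicle included. With anti-PD-L1 added, IL1RN rose by 2.47 ± 0.32 (adjusted p = 0.000325), and in the 3-drug group against vehicle by 1.97 ± 0.45 (adjusted p = 0.0494). That second call lay at the threshold: of the 12 fits that each left out 1 library it held in only those without replicate 1 or 3 of JQ1 with paclitaxel, and the adjusted p over the 12 ran from 0.0159 to 0.325. It was also lost in 8 of the 10 other settings tried, among them relative depth as a covariate (1.90, adjusted p = 0.0991). Depth was 0.794, 1.01 and 0.962 in the 3-drug libraries, all below both vehicle libraries. JQ1 against vehicle gave -1.41 ± 0.49 (adjusted p = 0.0713, not called).

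Antagonist and ligands were also set against each other within a library. IL1RN amounted to 10.3%, 12.6% and 15.3% of the summed FPKM of IL1A and IL1B in the 3-drug libraries. In the other CD45-negative libraries this share lay between 3.46% and 8.08%, apart from vehicle replicate 2 at 11.3%. IL1B exceeded IL1A in all 22 libraries, by 2.28-fold to 6.81-fold.

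JQ1 alone against vehicle left 5 of the 8 genes with both JQ1 libraries below both vehicle libraries, IL1A, IL1B, IL1RN, IL1R1 and CASP1, beside 33.0% of all genes. With 2 libraries a side this is a weak criterion. The near misses of this comparison turned on which other libraries set the spread: without replicate 1 of JQ1 with paclitaxel, which is in neither group, IL1A (adjusted p = 0.0261), IL1B (0.00589), IL1RN (0.0427) and CASP1 (0.0446) were all called, with the same differences. Without replicate 3 of that group IL1A, IL1B and IL1RN were called, and CASP1 was called without its replicate 2 and without 3-drug replicate 1 or 3 (adjusted p = 0.0419 to 0.0495). Relative depth moved with these groups, at 0.554 and 0.653 for JQ1 and 1.79 and 1.13 for vehicle, and with depth as a covariate none of the 8 was called.

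Among the receptors, IL1R1 had a narrow range of 2.03 to 4.72 FPKM over the 12 CD45-negative libraries. It lay at 3.35 and 3.68 FPKM with vehicle, 2.03 and 3.08 FPKM with JQ1, 4.55 and 4.49 FPKM with JQ1 and anti-PD-L1, 2.65, 2.58 and 3.98 FPKM with JQ1 and paclitaxel, and 3.37, 4.67 and 4.72 FPKM with 3 drugs. It rose by 0.51 ± 0.15 with anti-PD-L1 added (adjusted p = 0.023), with 1 library of each side overlapping. The call was lost without JQ1 replicate 1, without either JQ1 with anti-PD-L1 library and without JQ1 with paclitaxel replicate 1 (adjusted p = 0.0512 to 0.104), with relative depth as a covariate (0.44, adjusted p = 0.068), without the filter (adjusted p = 0.0502) and with 1 mean per mouse code (adjusted p = 0.15).

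The decoy receptor gene IL1R2 lay at 2.70 and 4.73 FPKM with vehicle, 2.83 and 1.85 FPKM with JQ1, 6.75 and 4.83 FPKM with JQ1 and anti-PD-L1, 0.685, 1.82 and 1.35 FPKM with JQ1 and paclitaxel, and 3.60, 3.87 and 2.58 FPKM with 3 drugs. It was lowest in the 3 libraries of JQ1 with paclitaxel and highest in the 2 of JQ1 with anti-PD-L1. IL1R2 rose by 0.99 ± 0.19 with anti-PD-L1 added (adjusted p = 0.00302). It fell by 1.04 ± 0.27 with JQ1 and paclitaxel against vehicle (adjusted p = 0.0202). The latter call was lost without vehicle replicate 2 (-0.73, adjusted p = 0.207) and without replicate 1 of JQ1 with paclitaxel (-0.84, adjusted p = 0.0639).

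IL1RAP, the co-receptor gene, was not called in any comparison. It lay at 1.11 and 1.48 FPKM with vehicle and at 1.33 to 3.08 FPKM in the 10 treated libraries. Of these only replicate 2 of JQ1 with anti-PD-L1, at 1.33 FPKM, was not above both vehicle libraries. Averaged over the 4 treated groups it differed from vehicle by 0.53 ± 0.19 (adjusted p = 0.104).

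Of the inflammasome genes, NLRP3 was the least abundant of the 8 in CD45-negative libraries by its median (1.79 FPKM). It lay at 0.389 and 1.44 FPKM with vehicle, 1.46 and 0.968 FPKM with JQ1, 5.39 and 3.50 FPKM with JQ1 and anti-PD-L1, 1.22, 3.99 and 1.71 FPKM with JQ1 and paclitaxel, and 2.25, 4.19 and 1.86 FPKM with 3 drugs. NLRP3 rose by 0.76 ± 0.26 with anti-PD-L1 added (adjusted p = 0.0464), with overlapping libraries. This call, too, was at the threshold and was lost in 8 of the 12 fits with 1 library left out: without either JQ1 library, either JQ1 with anti-PD-L1 library, replicates 1 or 3 of JQ1 with paclitaxel, or replicates 1 or 2 of the 3-drug group (differences 0.63 to 0.88, adjusted p = 0.0629 to 0.156). It was lost, too, with a pseudocount of 0.1 (adjusted p = 0.0635), without the filter (adjusted p = 0.116) and with 1 mean per mouse code (adjusted p = 0.185).

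CASP1, the caspase-1 gene, stayed within 14.4 to 29.3 FPKM. Its values were 23.7 and 29.3 FPKM with vehicle, 17.4 and 14.4 FPKM with JQ1, 24.2 and 27.6 FPKM with JQ1 and anti-PD-L1, 18.4, 27.4 and 24.4 FPKM with JQ1 and paclitaxel, and 27.4, 22.9 and 17.9 FPKM with 3 drugs. Both JQ1 libraries were the lowest of all 12, and the difference from vehicle of -0.70 ± 0.22 missed the threshold (adjusted p = 0.0531). With anti-PD-L1 added, CASP1 differed by 0.32 ± 0.15 (adjusted p = 0.128).

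The antibody groups were also compared with vehicle. Of the 8 genes, 6 lay above both vehicle libraries in both libraries of JQ1 with anti-PD-L1 (22.2% of all genes did), and 5 in all 3 libraries of the 3-drug group (14.0%). The 3-drug difference of IL1A was 1.71 ± 0.49 (adjusted p = 0.0855), and that of NLRP3 with JQ1 and anti-PD-L1 was 1.54 ± 0.40 (adjusted p = 0.105). Whether the antibody differences depended on paclitaxel was asked by the interaction, which was -1.60 ± 0.69 for IL1A (adjusted p = 0.669) and -1.87 ± 0.74 for IL1B (adjusted p = 0.639), and no dependence was called.

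Leukocyte genes were followed beside the antibody comparison. The summed FPKM of the 6 pan-leukocyte genes was 82.7 and 106 with vehicle, 151 and 98.8 with JQ1, 260 and 175 with JQ1 and anti-PD-L1, 78.7, 227 and 81.0 with JQ1 and paclitaxel, and 220, 228 and 130 with 3 drugs. The sums with and without antibody overlapped. None of these genes was at 0 in any library, and 1 of the 6 rose with anti-PD-L1 added, as did 4 of 12 macrophage and monocyte genes and 1 of 6 tested neutrophil genes, beside 14.0% of all genes. PTPRC was not among them (0.63 ± 0.29, adjusted p = 0.13). The differences of IL1A, IL1B, IL1RN, IL1R1 and IL1R2 were still called with the pan-leukocyte level as a covariate, a fit added after the values were seen: IL1A 2.07 (adjusted p = 0.0082), IL1B 1.72 (0.0199), IL1RN 2.49 (0.0026), IL1R1 0.66 (0.0239) and IL1R2 0.63 (0.0305). That of NLRP3 was 0.20 (adjusted p = 0.53) in that fit. With the macrophage level as covariate the same 5 genes were called, and with the neutrophil level only IL1A (2.14, adjusted p = 0.0349) and IL1RN (2.57, adjusted p = 0.0131). Of all genes, 2076 were called with the pan-leukocyte, 2637 with the macrophage and 1272 with the neutrophil covariate, beside 2691 without a covariate. The part of leukocyte RNA in these differences was not tested.

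The reporter of BET inhibition moved with the antibody as well. HEXIM1, which is known to rise when BET proteins are inhibited, lay at 0.768 and 1.38 FPKM with vehicle, 4.08 and 3.34 FPKM with JQ1, 2.02 and 1.15 FPKM with JQ1 and anti-PD-L1, 3.67, 4.70 and 3.24 FPKM with JQ1 and paclitaxel, and 1.5, 0.978 and 1.32 FPKM in the 3-drug group. HEXIM1 fell by 0.99 ± 0.16 with anti-PD-L1 added (adjusted p = 0.00103), and in the 3-drug group it did not differ detectably from vehicle (0.14 ± 0.22, adjusted p = 0.769). The CD45-negative libraries with high IL1A, IL1B and IL1RN were thus largely those with low HEXIM1 (Pearson r of -0.57, -0.59 and -0.66 over 12 libraries that share groups). The part of HEXIM1's pattern in these results was not tested.

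**Figure D2:**
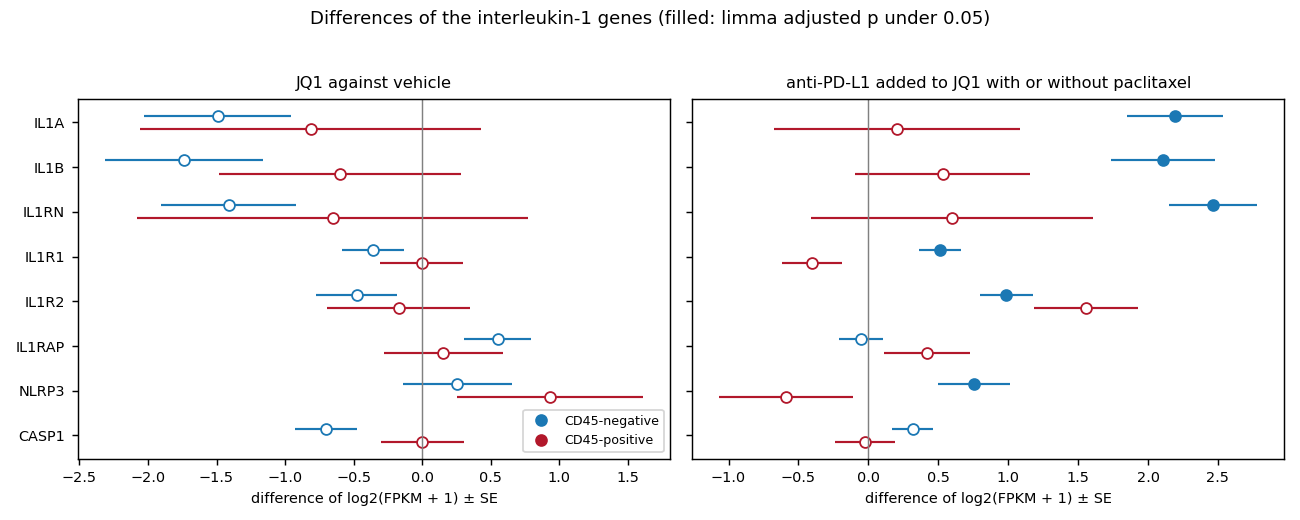
Differences of log2(FPKM + 1) with SE bars for the 8 interleukin-1 genes, for JQ1 against vehicle (left) and for anti-PD-L1 added to JQ1 with or without paclitaxel (right), CD45-negative in blue and CD45-positive in red; filled points passed limma's adjusted p of 0.05. The 6 filled points are all CD45-negative and on the right, and the red bars of IL1A, IL1B and IL1RN are longer than the blue ones.

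In the CD45-positive fraction none of the 8 genes was called in any comparison, and differences between libraries of 1 group were the leading pattern. Limma called 1.04% of all genes with JQ1 against vehicle, 0.029% with JQ1 and anti-PD-L1, 4.84% with JQ1 and paclitaxel, 0.135% in the 3-drug group and 0.822% for the 4 treated groups together. For anti-PD-L1 added it was 0.832%, for paclitaxel added 0.0387% and for the interaction 0.0%. The unadjusted p was under 0.05 for IL1R1 and IL1R2 with JQ1 and paclitaxel, and for IL1R2 with either drug added, and for no other gene of the 8. The lowest adjusted p among the 8 was 0.0693. Here, too, the shares of all genes rest on single libraries: the 500 genes called with JQ1 and paclitaxel became 17 and 38 without vehicle replicate 1 or 2 and 54 without replicate 2 of JQ1 with paclitaxel, and the 86 called for anti-PD-L1 added became 0 in 7 of 10 such fits. The same antibody comparison was thus called for 6 genes in 1 fraction and none in the other, but the fractions are separate tables and that contrast between them was not tested.

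**Figure D3:**
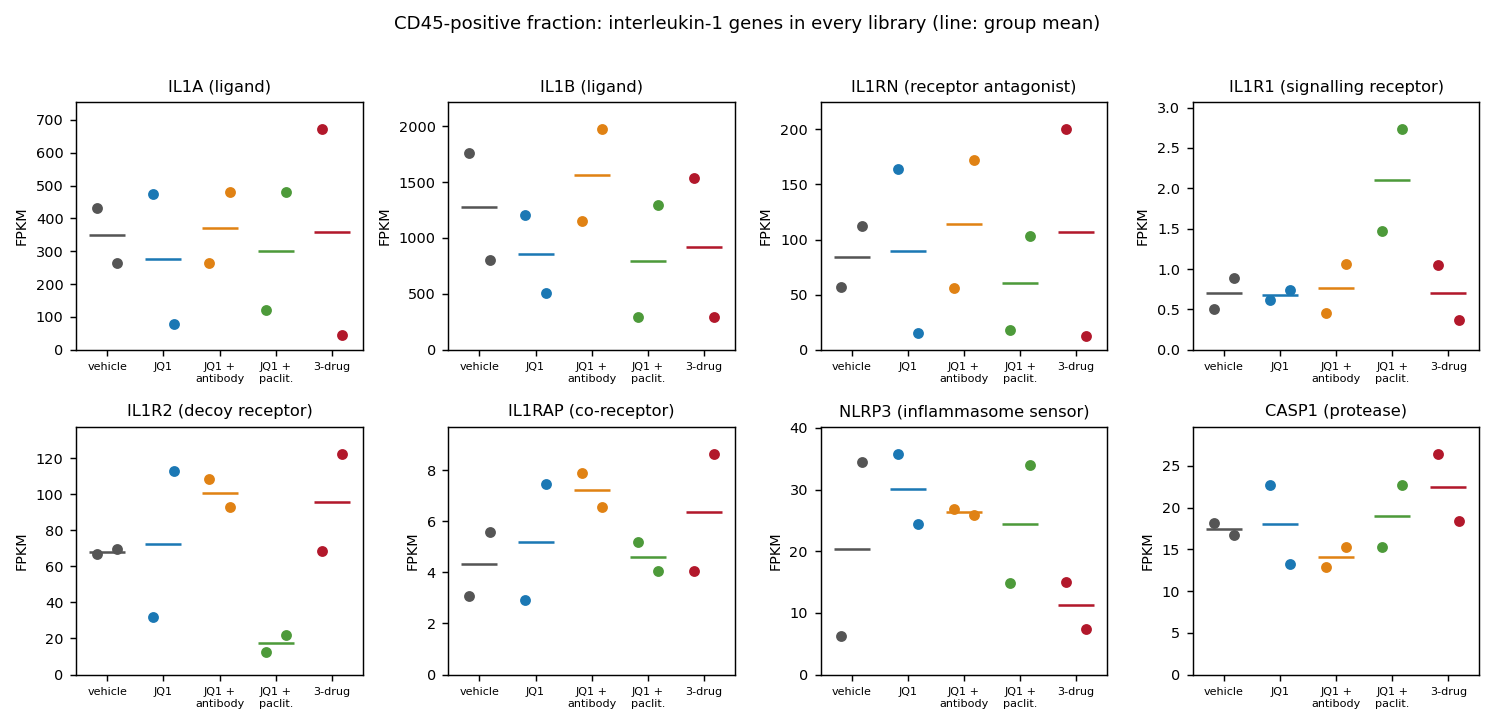
FPKM of the 8 interleukin-1 genes in each of the 10 CD45-positive libraries, drawn as for the CD45-negative fraction (points are libraries, lines are group means). The 2 libraries of the JQ1, JQ1 with paclitaxel and 3-drug groups lie far apart for IL1A, IL1B and IL1RN, and IL1R2 is lowest in both JQ1 with paclitaxel libraries.

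IL1A lay at 433 and 264 FPKM in CD45-positive vehicle libraries, 475 and 77.2 FPKM with JQ1, 264 and 479 FPKM with JQ1 and anti-PD-L1, 121 and 479 FPKM with JQ1 and paclitaxel, and 673 and 43.7 FPKM with 3 drugs. The highest and the lowest of the 10 values were the 2 libraries of the 3-drug group, 15.4-fold apart. Both tumours of the JQ1 group carried 1 mouse code and differed 6.15-fold.

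IL1B lay at 1763 and 799 FPKM with vehicle, 1202 and 512 FPKM with JQ1, 1152 and 1976 FPKM with JQ1 and anti-PD-L1, 297 and 1299 FPKM with JQ1 and paclitaxel, and 1533 and 298 FPKM with 3 drugs. The 3 lowest values belonged to the same libraries as the 3 lowest of IL1A: replicate 2 of JQ1, replicate 1 of JQ1 with paclitaxel and replicate 2 of the 3-drug group.

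IL1RN lay at 56.9 and 112 FPKM with vehicle, 164 and 15.1 FPKM with JQ1, 56.3 and 172 FPKM with JQ1 and anti-PD-L1, 17.8 and 103 FPKM with JQ1 and paclitaxel, and 200.4 and 12.7 FPKM with 3 drugs. Those 3 libraries were again the lowest, and the spread within the 3-drug group was 15.8-fold. Across the 10 libraries IL1A and IL1RN had a Pearson r of 0.93 and IL1A and IL1B of 0.91; across the 12 CD45-negative libraries these were 0.93 and 0.97 (log2 values of libraries that share groups and, in part, mice).

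The immediate early genes, which cells switch on quickly after a stimulus such as handling, ran opposite to these 3 genes. The summed FPKM of FOS, FOSB, JUN, JUNB, EGR1, IER2, ZFP36 and DUSP1, a list chosen after values were seen, was 3180, 2586 and 4144 in the 3 low libraries and 1349 to 2557 in the other 7. The lowest sums, 1349 and 1447, were in the 2 libraries with the highest and the third highest IL1RN. Vehicle replicate 1 departed from this, with a sum of 2557 beside 433 FPKM of IL1A. Over the 10 CD45-positive libraries r with this sum was -0.90 for IL1A, -0.71 for IL1B and -0.94 for IL1RN, and over the 12 CD45-negative ones -0.89, -0.80 and -0.95. In the CD45-negative fraction the sum was 4894 and 6123 with JQ1, 3989, 4126 and 1981 with JQ1 and paclitaxel, and 1554 to 3005 in the libraries with antibody, so that 1 library without antibody lay within the antibody range. The part of sample handling in the interleukin-1 values was not tested. HEXIM1 was 5.75, 4.80 and 3.93 FPKM in the 3 low CD45-positive libraries and 0.993 to 4.74 FPKM in the others.

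**Figure D4:**
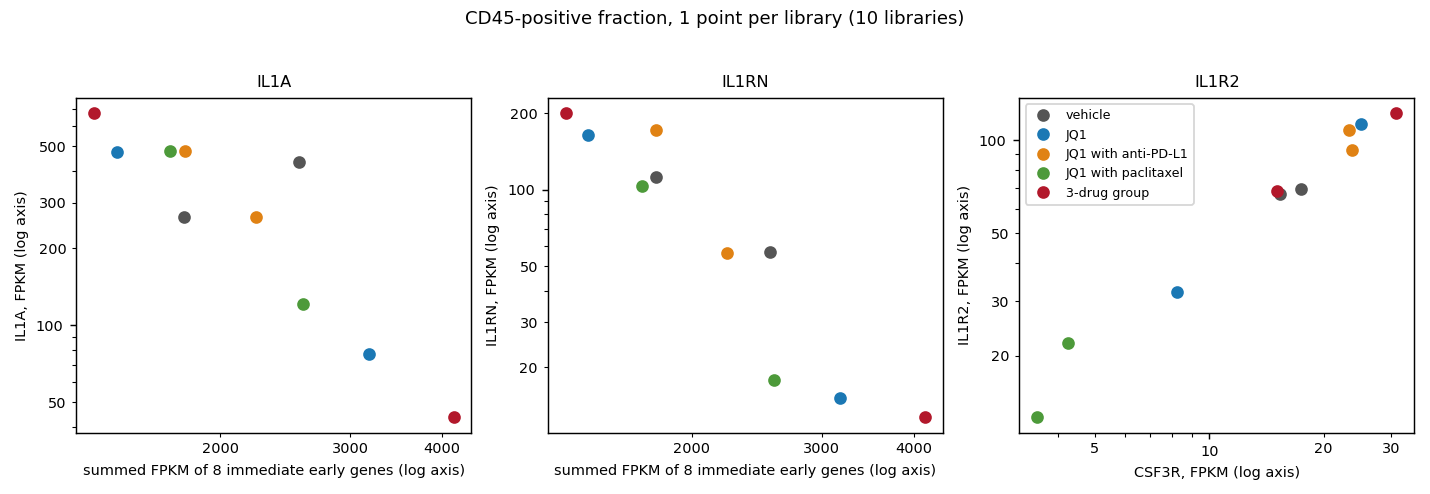
IL1A and IL1RN against the summed FPKM of 8 immediate early genes, and IL1R2 against the neutrophil gene CSF3R, each point 1 of the 10 CD45-positive libraries coloured by treatment, all axes logarithmic FPKM. IL1A and IL1RN fall from left to right, and IL1R2 rises with CSF3R from the 2 JQ1 with paclitaxel libraries at 12.6 and 21.9 FPKM to a 3-drug library at 123 FPKM.

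IL1R2 followed a different order in leukocytes. It lay at 66.8 and 69.6 FPKM with vehicle, 32.2 and 113 FPKM with JQ1, 108 and 93.1 FPKM with JQ1 and anti-PD-L1, 12.6 and 21.9 FPKM with JQ1 and paclitaxel, and 68.7 and 123 FPKM with 3 drugs. Both JQ1 with paclitaxel libraries were below the other 8. The difference from vehicle was -1.97 ± 0.52 (adjusted p = 0.0693) and that for anti-PD-L1 added was 1.56 ± 0.37 (adjusted p = 0.087); neither was called. The first was called without either JQ1 library (adjusted p = 0.0138 and 0.014), and the second without JQ1 replicate 2 (2.0, adjusted p = 0.0371). Relative depth was 0.905 and 0.629 with JQ1 and paclitaxel and 1.3 and 1.44 with vehicle, and with it as a covariate the first difference of IL1R2 was -1.95 (adjusted p = 0.678).

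Neutrophil genes moved with IL1R2 in part. Over the 10 CD45-positive libraries r of IL1R2 with the summed neutrophil markers was 0.77. CSF3R, the receptor gene for the neutrophil growth factor G-CSF, was 3.53 and 4.24 FPKM in JQ1 with paclitaxel libraries and 8.25 to 31.1 FPKM in the others, and was the gene most like IL1R2 of 6819 searched (r of 0.989 over 10 libraries). The summed neutrophil markers were 241 and 260 FPKM with JQ1 and paclitaxel, 1082 and 677 FPKM with vehicle and 1069 and 1467 FPKM with JQ1 and anti-PD-L1. They were also low, at 190 and 221 FPKM, in replicate 1 of JQ1 and replicate 1 of the 3-drug group, where IL1R2 was 32.2 and 68.7 FPKM. With JQ1 and paclitaxel against vehicle 2 of 9 tested neutrophil genes fell in this fraction (4.84% of all genes called), and 4 of 6 in the CD45-negative fraction (17.6%), where IL1R2 fell. In the CD45-negative 3-drug libraries the neutrophil sums were as low, 9.48 to 15.3 FPKM beside 10.7 to 11.7 FPKM with JQ1 and paclitaxel and 30.4 and 37.4 FPKM with vehicle, and 3 of 6 genes fell (1.63% of all genes), yet the mean of IL1R2 there was 3.35 FPKM beside 3.71 FPKM with vehicle. CSF3R did not follow the sums in those CD45-negative libraries, with low means of 1.03 FPKM with 3 drugs and 0.575 FPKM with vehicle. With the neutrophil level as a covariate the CD45-negative IL1R2 difference for JQ1 with paclitaxel was -0.34 (adjusted p = 0.746). That covariate does not overlap between these groups, so the part of neutrophils and that of treatment cannot be told apart.

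The remaining receptor genes were low in leukocytes. IL1R1 was the least abundant of the 8 in CD45-positive libraries, at 0.503 and 0.893 FPKM with vehicle, 0.374 to 1.07 FPKM in 6 treated libraries, and 1.47 and 2.74 FPKM with JQ1 and paclitaxel. The 2 highest values were thus in JQ1 with paclitaxel (0.85 ± 0.30 against vehicle, adjusted p = 0.151, not called). In these same libraries the summed fibroblast genes were 201 and 112 FPKM, against 28.5 to 95 FPKM in the other 8, and the summed endothelial genes 22.2 and 30.7 FPKM, against 1.81 to 13.2 FPKM. All 4 tested endothelial genes and 1 of 5 fibroblast genes rose there against vehicle, beside 4.84% of all genes, and the part of such cells in the IL1R1 values was not tested. IL1RAP ranged from 2.92 to 8.65 FPKM and was highest in replicate 2 of the 3-drug group, 1 of the 3 libraries low in IL1A.

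The inflammasome genes were not called either. NLRP3 lay between 6.21 and 35.8 FPKM, with its lowest values in vehicle replicate 1 (6.21) and 3-drug replicate 2 (7.46), and both vehicle libraries, at 6.21 and 34.5 FPKM, nearly spanned the whole range. CASP1 lay between 12.9 and 26.5 FPKM, with a ratio of highest to lowest of 2.05, the smallest of the 8 in that fraction.

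By the order of medians, CD45-positive libraries held IL1B (1177 FPKM) above IL1A (348), IL1RN (80.1), IL1R2 (69.1), NLRP3 (25.1), CASP1 (17.4), IL1RAP (5.38) and IL1R1 (0.817). CD45-negative libraries held IL1B (84.5 FPKM) above IL1A (27.9), CASP1 (23.9), IL1RN (8.50), IL1R1 (3.52), IL1R2 (2.76), IL1RAP (2.40) and NLRP3 (1.79). Ranges of neighbours in the CD45-negative order all overlapped. In the CD45-positive order 2 steps did not: CASP1 (lowest 12.9 FPKM) lay above IL1RAP (highest 8.65 FPKM), and IL1RAP (lowest 2.92 FPKM) above IL1R1 (highest 2.74 FPKM).

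For 10 tumours both fractions were sequenced, which allowed levels to be set side by side, with the caution that the tables may have been normalised separately. For the ligand, antagonist, decoy receptor and NLRP3 genes the median share was near that of leukocyte genes. The CD45-negative level was a median 7.90% of the CD45-positive level for IL1A, 7.34% for IL1B, 10.5% for IL1RN, 5.34% for IL1R2 and 7.23% for NLRP3, beside 8.78% for the pan-leukocyte sum and 6.74% for PTPRC. Single tumours differed by gene. The pan-leukocyte share of the same tumour was exceeded in 7 of 10 tumours for IL1RN, 6 for NLRP3, 3 for IL1A, 1 for IL1B and 0 for IL1R2. IL1R1 was higher in the CD45-negative library of all 10 tumours, at 146% to 1248% of the CD45-positive level (median 413%). CASP1 was higher there in 9 of 10 tumours (median 123%, range 76.5% to 187%), and the share of IL1RAP (median 35.0%) exceeded the pan-leukocyte share in all 10.

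Single tumours departed from this. In the 3-drug tumour of replicate 2 the CD45-negative library held 141% of the CD45-positive level of IL1A, 200.4% of that of IL1RN, 47.2% of that of IL1B and 56.1% of that of NLRP3, while its pan-leukocyte sum was 15.7% and PTPRC 18.6%. The IL1A level there was 61.5 FPKM in CD45-negative and 43.7 FPKM in CD45-positive cells. In JQ1 replicate 1 the shares were 0.705% for IL1A, 0.639% for IL1RN and 1.49% for IL1B, below its pan-leukocyte share of 9.40%.

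**Figure D5:**
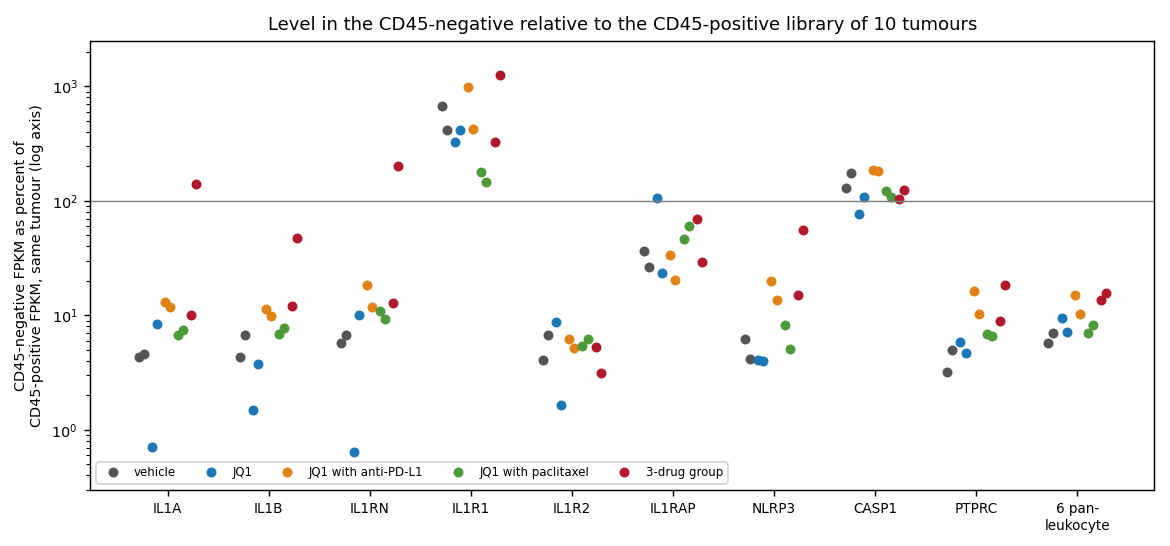
CD45-negative FPKM as a percentage of the CD45-positive FPKM of the same tumour, on a logarithmic axis, for the 8 interleukin-1 genes, PTPRC and the sum of 6 pan-leukocyte genes; points are the 10 tumours coloured by treatment and the grey line is 100%. IL1R1 lies above the line in all 10 tumours and CASP1 in 9, IL1R2 stays below 8.79%, and a single 3-drug tumour stands at 141% for IL1A and 200.4% for IL1RN.

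The genes most like each member were sought over the libraries of a fraction, as Pearson r of log2 values among genes of at least moderate level, 7447 in the CD45-negative and 6819 in the CD45-positive fraction. These libraries share groups and depth, so r is given as a description. In the CD45-negative fraction IL1A was most like BCL2A1D (0.97), an anti-apoptotic gene, and IL1B (0.97); IL1B was next most like CXCL10 (0.93) and BIRC3 (0.92), both NF-kB targets. IL1RN was most like IL10 (0.97), the gene of an anti-inflammatory cytokine, NLRP3 like LILR4B (0.94) and CSF2RA (0.93), IL1R2 like IL10RB (0.93), CASP1 like LYPLA2 (0.89), IL1R1 like OASL1 (0.88) and IL1RAP like PARTICL (0.84).

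In the CD45-positive fraction IL1RN was most like TRAF1 (0.98) and NFKBIB (0.96), NLRP3 like CSF2RB2 (0.97) and ZC3H12A (0.96), CASP1 like PSME2B (0.96), IL1RAP like C5AR1 (0.98), the complement C5a receptor gene, IL1B like FTH1 (0.92) and IL1R1 like ZEB2 (0.90). IL1A was most like GM14023 (0.99), a long non-coding RNA gene that overlaps Il1a in RefSeq and lay at 2.82 to 42.6 FPKM. Whether the authors' counting used strand is not given in the sources used here, so reads of this overlap cannot be told apart. The non-coding genes overlapping Il1b, Il1r2 and Il1rap reached at most 2.85, 0.233 and 5.47 FPKM in that fraction. The last ranged from 0.485 to 5.47 FPKM, beside 2.92 to 8.65 FPKM for IL1RAP itself.

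The wider interleukin-1 pathway was counted with lists of related genes, for which the shares of all genes called, given above, are the reference. For JQ1 against vehicle in CD45-negative cells, 1043 of the 10780 tested genes were called lower and 549 higher. With relative depth as a covariate these became 246 and 64. Each of these 2 groups holds tumours of 1 mouse code, so the unit of this comparison is the tumour and not the mouse. Among IL-1 family ligands and their binding protein, 3 of 8 listed genes were tested in CD45-negative cells. IL33, the gene of an alarmin, fell with JQ1 by 3.01 ± 0.21 (adjusted p = 2.74e-05), from a mean of 39.1 to 3.99 FPKM. IL33 rose with anti-PD-L1 added by 1.61 ± 0.13 (adjusted p = 2.64e-05), as IL1A and IL1B did, and both calls held with each of the 12 libraries left out. Unlike IL1A and IL1B, whose means lay above vehicle in both antibody groups, IL33 was still lower than vehicle there. Its difference was -1.37 ± 0.21 with JQ1 and anti-PD-L1 (limma adjusted p = 0.0166) and -1.34 ± 0.19 with 3 drugs (adjusted p = 0.0146). These 2 IL33 calls held in 8 and 10 of the 12 fits with a library left out. Both were lost without either vehicle library, and the first also without either library of JQ1 with anti-PD-L1. Each such fit left a lone library in 1 of the compared groups. Each of the 2 calls held in 6 of the 10 settings other than leaving out a library. In the 3-drug group IL18BP, the gene of an IL-18 inhibitor, differed from vehicle by 1.13 ± 0.24 (adjusted p = 0.0458) and IL18 by -0.76 ± 0.17 (adjusted p = 0.0496). These calls held in only 4 and 1 of the 12 fits with a library left out (adjusted p up to 0.272 and 0.263). In CD45-positive cells the difference of IL18 with anti-PD-L1 added was 1.31 ± 0.19 (adjusted p = 0.0433), a call that held only without 3-drug replicate 2 among 10 such fits (adjusted p up to 0.185).

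All 4 tested receptor genes of the wider family rose in CD45-negative cells with anti-PD-L1 added, beside 14.0% of all genes called higher. With JQ1 against vehicle 3 of the 4 fell, beside 1043 of all 10780 genes. IL1RL1, the IL-33 receptor gene, fell with JQ1 by 3.15 ± 0.62 (adjusted p = 0.00676) and rose with anti-PD-L1 added by 2.03 ± 0.40 (adjusted p = 0.00341). SIGIRR, a gene of an inhibitory family member, fell with JQ1 by 1.42 ± 0.25 and rose with anti-PD-L1 added by 1.10 ± 0.16 (adjusted p = 0.00402 and 0.000746). IL18RAP and IL1RL2 rose with anti-PD-L1 added by 0.85 ± 0.16 and 0.72 ± 0.15 (adjusted p = 0.00257 and 0.00494). Both lay near the filter of 1 FPKM, with group means of 0.464 to 2.25 FPKM for IL18RAP and 0.350 to 1.82 FPKM for IL1RL2.

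Of 11 tested genes of the inflammasome and pyroptosis list, 5 rose and 1 fell with anti-PD-L1 added, and 1 rose and 3 fell with JQ1 against vehicle. Of all 10780 tested genes, the first comparison called 1512 higher and 1179 lower, and the second 549 higher and 1043 lower. GSDMD, whose product forms the membrane pore after caspase-1 cleavage, fell with JQ1 by 1.31 ± 0.18 (adjusted p = 0.00116), from a mean of 38.3 to 14.7 FPKM, and rose with anti-PD-L1 added by 0.78 ± 0.12 (adjusted p = 0.000785). TXNIP ran the other way, up by 1.90 ± 0.49 with JQ1 (adjusted p = 0.0229) and down by 1.41 ± 0.31 with anti-PD-L1 added (adjusted p = 0.00654). SERPINB1A and CASP8 fell with JQ1 (-1.83 ± 0.27 and -0.80 ± 0.22, adjusted p = 0.00184 and 0.0326).

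Of 19 receptor signalling genes 7 rose and 1 fell with anti-PD-L1 added, among them the NF-kB genes RELA (0.86 ± 0.18), NFKB1 (0.69 ± 0.20) and NFKB2 (0.68 ± 0.14) and the kinase gene IRAK2 (0.92 ± 0.23), with adjusted p from 0.00395 to 0.0235. Of 24 tested genes known to respond to IL-1, 12 rose and none fell. Of all 10780 tested genes, 1512 were called higher and 1179 lower in that comparison. The neutrophil chemokine genes CXCL3 (1.92 ± 0.28, adjusted p = 0.000661) and CXCL5 (2.02 ± 0.36, adjusted p = 0.00191) rose, and CCL7 rose by 0.96 ± 0.17 (adjusted p = 0.00208). The mean of CCL7 was 76.4 FPKM with JQ1 and 251 FPKM with JQ1 and anti-PD-L1. On paclitaxel the means lay closer, at 75.6 FPKM without the antibody and 89.7 FPKM with 3 drugs. CCL7 also fell by 0.75 ± 0.17 with paclitaxel added (adjusted p = 0.0353). That call held in 7 of the 12 fits with a library left out and in 6 of the 10 other settings. With JQ1 against vehicle 7 of the 24 fell, beside 1043 of all 10780 genes. Of the 7, CXCL5 fell by 3.46 ± 0.55 (adjusted p = 0.00243) and CSF3, the G-CSF gene, by 2.83 ± 0.75 (adjusted p = 0.0266). In CD45-positive cells the antibody comparison called none of the tested receptor, inflammasome, signalling or target genes of these lists. It called 0.832% of all genes there, so a count of 0 in short lists lies near that share.

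Of the calls named for these lists with anti-PD-L1 added, those of IL33, IL1RL1, SIGIRR, IL18RAP, IL1RL2, GSDMD, TXNIP, RELA, NFKB2, CXCL3, CXCL5 and CCL7 held with any 1 of the 12 CD45-negative libraries left out. IRAK2 lost its call without replicate 2 of JQ1 with anti-PD-L1 (adjusted p = 0.0529), and NFKB1 without JQ1 replicate 2, JQ1 with anti-PD-L1 replicate 2, JQ1 with paclitaxel replicate 1 or 3-drug replicate 1. Of those with JQ1 against vehicle, IL33, SERPINB1A, GSDMD and CXCL5 held with any 1 library left out, and SIGIRR was lost without JQ1 replicate 1. In the 10 other settings IL33 held in 10, SERPINB1A and GSDMD in 9 each and CXCL5 in 8. Among these settings, 1 mean per mouse code leaves vehicle and JQ1 with 1 value each. IL1RL1 was lost without vehicle replicate 2 or JQ1 replicate 1, TXNIP without either vehicle library or JQ1 replicate 1, CSF3 without vehicle replicate 1 or either JQ1 library, and CASP8 without any 1 library of either group (adjusted p up to 0.205).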

How the data were processed

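Bulk RNA-seq tables of 12 CD45-negative and 10 CD45-positive libraries were used. Reads were aligned with STAR 2.5.1b to mm9, per the submitters' processing notes; for the counting tool nothing is given in the sources used here. Labels call the deposited values counts, but they are not whole and their column sums differ, and they were read as the authors' FPKM. From them log2(FPKM + 1) was computed, genes that reached 1 FPKM in 2 or more libraries of the fraction entered the test, and limma 3.58.1 (R 4.3.3) with a mean-variance trend was fitted per fraction over the 5 groups, with Benjamini-Hochberg adjustment and a threshold of 0.05. The unit assumed here cannot be checked further, and FPKM hold no read totals, so the depth is unknown and no counting interval is given. Relative depth was read from the steps of low values. The script was tested on simulated data.

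Named were the 8 genes, up to 4 called genes of each pathway list per fraction, the 3 genes most like each of the 8 (searched among genes with a mean log2 value of at least 2), and marker and check genes. The members and lists were chosen with earlier results of these data known. Alternatives were a pseudocount of 0.1, no filter, median-of-ratios scaling, relative depth as a covariate, no trend, only the compared groups, 1 mean per mouse code and leaving out each library. The leukocyte, macrophage and neutrophil covariates and the immediate early list were added after seeing the data.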

Additional observations from a re-analysis of the deposited data

How the results depend on the processing

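No paired analysis was possible because the labels give no replicate number shared between the treatment groups compared; the tumours sequenced in both fractions pair libraries of separate tables, which were not tested against each other. IL1A, IL1B, IL1RN and IL1R2 kept their call for anti-PD-L1 added in every fit that left out 1 CD45-negative library. IL1R1 and NLRP3 both lost theirs without the filter and with 1 mean per mouse code. IL1R1 also lost it with relative depth as a covariate, and NLRP3 with a pseudocount of 0.1. Of the 8 genes, the count called in that comparison was 6, 4 to 6 with 1 library left out, and 2 with the neutrophil covariate. For JQ1 against vehicle the count of 0 became 1 with a pseudocount of 0.1, 2 with the pan-leukocyte covariate, 1 with the macrophage covariate and 4 with only the compared groups, and ran from 0 to 4 with 1 library left out. For JQ1 with paclitaxel against vehicle the count of 1 became 0 without the filter, with the neutrophil covariate, with 1 mean per mouse code and with only the compared groups, and ran from 0 to 1 with 1 library left out. For the 3-drug group against vehicle the count of 1 became 0 with a pseudocount of 0.1, without the filter, with the relative depth, pan-leukocyte, macrophage and neutrophil covariates, with 1 mean per mouse code and without the trend, became 2 with only the compared groups, and ran from 0 to 2 with 1 library left out. For paclitaxel added the count of 0 ran from 0 to 2, the 2 without JQ1 with paclitaxel replicate 1. In the CD45-positive fraction JQ1 with paclitaxel against vehicle (0) gave 1 with only the compared groups, and 0 to 1 with 1 library left out; anti-PD-L1 added (0) gave 1 with the pan-leukocyte covariate, and 0 to 1 with 1 library left out. The difference of IL1R2 for paclitaxel added in CD45-negative libraries, -0.60, reversed to 0.19 with the neutrophil covariate (limma adjusted p = 0.927). The cause of these changes was not tested. With 2 or 3 libraries a group, the number of libraries limits precision, and with 1 library left out a lone library is assumed to vary like the other groups.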
